A study of Caenorhabditis elegans with 2 samples.

Results

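The piRNA clusters of chromosome IV were examined in a ChIP-seq experiment on the protein F52B5.7 in Caenorhabditis elegans, a nematode. The clusters were taken as 2 fixed intervals of the ce11 genome build, from 4.5 to 7 Mb (cluster 1) and from 13.5 to 17.2 Mb (cluster 2). A candidate region belonged to a cluster when its summit lay inside the interval. Of the 30000 candidate regions in the pooled list of the authors, 4442 lay on chromosome IV and 927 in the clusters, 504 in cluster 1 and 423 in cluster 2. The other 3515 candidates of chromosome IV, the rest of the chromosome, were the comparison. The members were chosen by position, with no measured value.

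All samples came from strain OP606, which carries the mutation unc-119(tm4063) and the integrated transgene wgIs606, so that F52B5.7 bears GFP and FLAG at its C terminus. Chromatin of whole young adult worms, both sexes pooled, was sonicated 63 h after synchronisation as starved L1 larvae and precipitated with an antibody to GFP. The labels give 2 biological replicates in 1 group, and no untagged or wild-type library was analysed here. Whole animals mix germline and soma, the expression of the transgene by tissue is not in the labels, and transgenes can be weakly expressed in the germline, so tissues cannot be told apart in these lists.

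In C. elegans, piRNAs, also called 21U-RNAs, are germline small RNAs that guide the Argonaute protein PRG-1 to foreign and self transcripts. Most come from very short genes that lie densely on chromosome IV, each transcribed on its own from a promoter with a conserved upstream sequence element, in introns and between protein-coding genes. tRNA genes, snoRNA genes and many other short noncoding genes also have compact promoters of their own, and tRNA genes are transcribed by RNA polymerase III.

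The sequences under the strongest peaks and beside piRNA genes differed in base composition. The first set holds 50 bases on each side of the summits of the 3 strongest optimal-list peaks of each cluster, in ce11 on the plus strand, with capitals for bases of an annotated noncoding gene other than a piRNA gene or of a protein-coding exon. They are shown because they carry the highest signal in the clusters.
upstream of Y17G9B.5, chrIV:4750031-4750131, plus strand: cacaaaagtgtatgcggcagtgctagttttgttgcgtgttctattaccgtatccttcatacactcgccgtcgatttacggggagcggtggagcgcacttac
upstream of sqd-1, chrIV:6323785-6323885, plus strand: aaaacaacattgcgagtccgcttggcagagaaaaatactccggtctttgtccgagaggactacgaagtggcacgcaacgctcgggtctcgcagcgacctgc
C43G2.t1 tRNA-Leu, chrIV:6556751-6556851, plus strand: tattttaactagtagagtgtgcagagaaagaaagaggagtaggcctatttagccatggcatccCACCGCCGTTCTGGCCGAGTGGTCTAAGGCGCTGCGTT
zip-7 intron, chrIV:16503744-16503844, plus strand: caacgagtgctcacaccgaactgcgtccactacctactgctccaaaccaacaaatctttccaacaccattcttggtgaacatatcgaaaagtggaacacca
mir-52 locus, chrIV:14033843-14033943, plus strand: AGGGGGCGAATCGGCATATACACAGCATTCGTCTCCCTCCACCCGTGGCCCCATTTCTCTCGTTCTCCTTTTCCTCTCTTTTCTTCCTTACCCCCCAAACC
upstream of lin-66, chrIV:13887558-13887658, plus strand: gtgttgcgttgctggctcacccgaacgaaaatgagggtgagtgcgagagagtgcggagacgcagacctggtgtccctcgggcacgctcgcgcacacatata
Of these 6 windows, 4 hold no annotated exon or noncoding gene base at all, the tRNA window holds 38 such bases, and the mir-52 window lies in annotated noncoding RNA genes along its whole length. Their GC content was 46.5% to 60.4%, and none held the upstream element of piRNA genes described below.

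The second set holds the 6 piRNA genes of the clusters nearest to an optimal-list summit, each as 60 bases of upstream sequence followed by the 21 bases of the piRNA, on the strand of the gene. Capitals mark the 8-base word CTGTTTCA in the upstream part, the most frequent 8-base word before piRNA genes. They are shown because they are the piRNA genes for which binding at the gene itself could most readily be looked for.
21ur-5229, chrIV:5967029-5967109, plus strand: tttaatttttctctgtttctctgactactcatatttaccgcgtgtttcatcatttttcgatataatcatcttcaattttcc
21ur-3160, chrIV:14224908-14224988, plus strand: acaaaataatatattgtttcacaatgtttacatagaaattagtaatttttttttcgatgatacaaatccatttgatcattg
21ur-5470, chrIV:14224943-14225023, minus strand: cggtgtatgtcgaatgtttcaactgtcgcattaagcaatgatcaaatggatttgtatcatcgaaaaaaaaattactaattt
21ur-3187, chrIV:5607749-5607829, minus strand: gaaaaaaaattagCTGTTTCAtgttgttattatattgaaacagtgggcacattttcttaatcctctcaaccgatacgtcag
21ur-11336, chrIV:13870552-13870632, minus strand: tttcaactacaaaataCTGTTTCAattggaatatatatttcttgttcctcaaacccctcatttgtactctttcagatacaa
21ur-2298, chrIV:14224784-14224864, minus strand: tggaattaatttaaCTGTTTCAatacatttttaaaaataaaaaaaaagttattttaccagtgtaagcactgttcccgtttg
GC content of these 6 stretches was 21% to 33.3%, below every one of the 6 summit windows. The exact word was present in 3 of the 6, and 5 of the 6 piRNAs begin with T, which is U in the RNA.

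The intervals were first checked against annotation. Ensembl lists 15363 piRNA genes in the genome, 14714 of them on chromosome IV. Of these, 14204 lay in the clusters, 2816 in cluster 1 and 11388 in cluster 2, and 510 in the rest of the chromosome, or 2291 against 45.2 genes per Mb. Of the 14714 genes, 96.2% begin with T. Within the clusters, 8924 piRNA genes lay outside protein-coding genes, 4810 in introns and 470 in exons. The word CTGTTTCA stood in the 70 bases before 5117 of the 14714 genes (34.8%), with a median of 46 bases from its first base to the piRNA. On either strand it occurred 796 times per Mb in the clusters, against 81.8 times in the rest of the chromosome. The word was picked from these same genes, so its excess in the clusters is no separate check of the intervals. By these gene counts the intervals, taken whole, hold what their name says. The first 3 stretches of 100 kb in cluster 1 are an exception, with 0, 1 and 8 piRNA genes. They hold 48, 53 and 46 candidates, among them the strongest peak of the clusters, at chrIV:4750081.

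Candidate regions were sparser in the clusters than elsewhere on the chromosome. The pooled list held 149.5 candidates per Mb in the clusters and 311 per Mb in the rest of chromosome IV, a ratio of 0.480. The ratio was 0.436 in the replicate 1 list and 0.601 in the replicate 2 list, so both replicates had the same direction and differed in size. Cluster 2, which holds most piRNA genes, had 114 candidates per Mb and cluster 1 had 202. The flanks had more, with 369 per Mb left of cluster 1, 276 between the clusters and 208 in the short stretch right of cluster 2. The candidate just inside the left edge of cluster 1 had a signal of 50.3 and the one just outside 30.1, and at its right edge the signals were 43.0 inside and 43.0 outside. At the left edge of cluster 2 they were 30.3 inside and 31.4 outside, and at its right edge 60.5 inside and 194 outside, where an optimal-list peak lies.

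The authors also deposited an optimal list of regions, selected by the irreproducible discovery rate (IDR), which weighs how well ranks match between lists. In ce11 these were exactly the candidates with the highest pooled signal, down to a limit, so membership in the optimal list and signal are 1 measure here. In the clusters 44 of 927 candidates were optimal-list peaks, 4.75% (95% exact Clopper-Pearson interval 3.47% to 6.32%), 21 in cluster 1 and 23 in cluster 2. In the rest of chromosome IV 125 of 3515 were, 3.56% (2.97% to 4.22%). Over all candidates the share was 3.44%, and over chromosome IV 3.8%. The intervals overlap, and with an equal number of each replicate's own strongest regions (3.44% of that replicate's candidates) the shares were 4.55% in the clusters against 3.26% in the rest for replicate 1, but 3.36% against 3.60% for replicate 2. The share of candidates that reached the optimal list therefore had no stable direction. Per length, optimal-list peaks were sparser in the clusters, 7.10 per Mb against 11.1 per Mb, a ratio of 0.641 in the pooled list, 0.607 in replicate 1 and 0.559 in replicate 2. Over positions farther than 250 bp from piRNA genes the density was 13.1 per Mb in the clusters (40 peaks) against 11.1 per Mb in the rest (123 peaks). The ratio there was 1.18. No interval was computed for these densities, and the 2 replicate lists differed, as given below.

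Signal, the authors' value per region with no stated scale, was much alike in both. The median pooled signal of candidates was 48.5 in the clusters (quartiles 37.9 and 63.3) and 45.9 in the rest of the chromosome (quartiles 36.8 and 60.9), a difference of 2.54. Within the replicate lists the difference was 0.774 and 0.363, small beside the spread between regions. Among optimal-list peaks the median was 144 in the clusters and 139 in the rest, and the highest was 271 in the clusters and 374 in the rest.

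**Figure D1:**
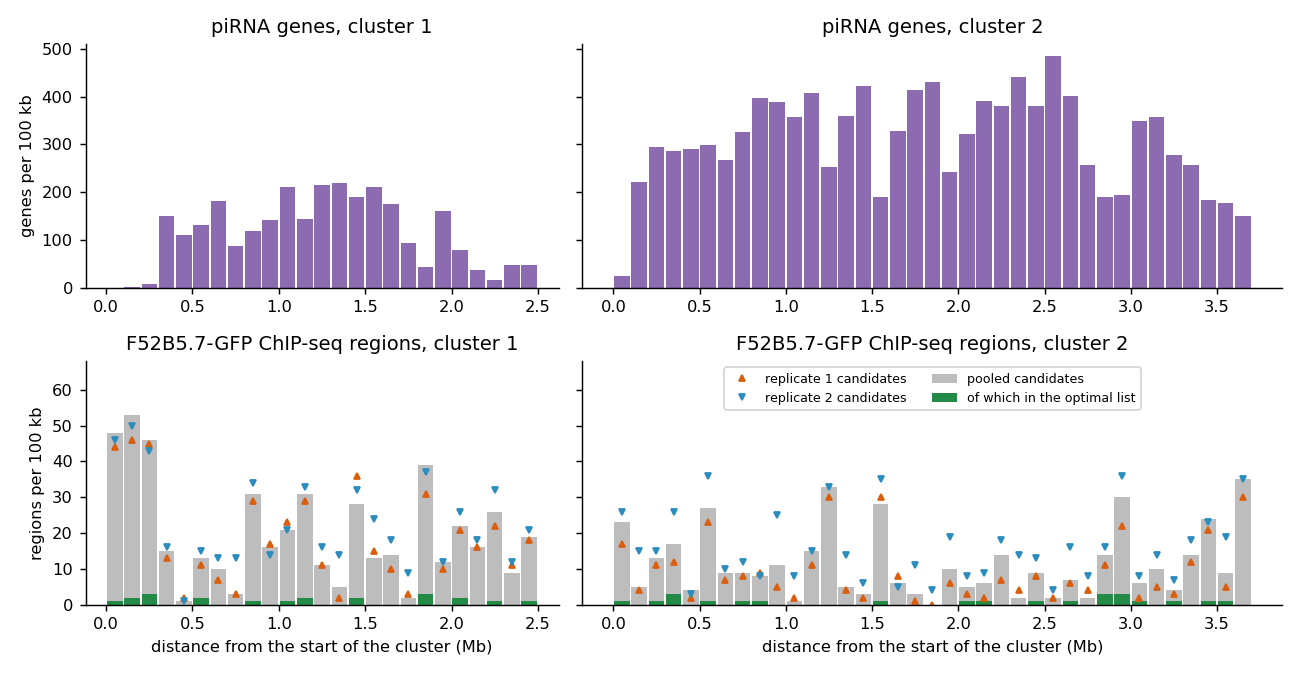
Annotated piRNA genes (upper panels) and F52B5.7-GFP regions (lower panels) per 100 kb along cluster 1 and cluster 2, against distance from the cluster start in Mb. Grey bars are pooled candidates, green bars those in the optimal list, and triangles the candidates of each replicate list. The first 3 bins of cluster 1, nearly free of piRNA genes, hold 46 to 53 candidates each, and 1 bin of cluster 2 with 430 piRNA genes holds none in the pooled list.

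Inside the clusters, stretches rich in piRNA genes were poor in candidates. Of 62 bins of 100 kb, 34 held 200 or more piRNA genes and averaged 9.12 candidates, while the 28 others averaged 22.0. Spearman's rho between the 2 counts over bins was -0.573 in the pooled list, -0.613 in replicate 1 and -0.524 in replicate 2. This is a description of neighbouring bins of 1 chromosome, which are not independent. Coding sequence moved with both counts, with rho of -0.747 between piRNA genes and coding bases and 0.405 between coding bases and candidates, so piRNA genes and scarce coding sequence cannot be told apart over these bins. Within cluster 1 the values were -0.456 between piRNA genes and candidates, -0.360 between piRNA genes and coding bases and 0.0893 between coding bases and candidates. Within cluster 2 they were -0.580, -0.485 and 0.338, in the same order. GC content differed between bins as well. It ran from 29.9% in a bin with 486 piRNA genes and 2 candidates to 37.6% in the first bin of cluster 1, with no piRNA gene and 48 candidates. Its part in the relation over bins was not tested.

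The longest candidate-free stretches were in the clusters. In cluster 2 no pooled summit fell between chrIV:16000661 and chrIV:16161967, a gap of 161.3 kb with 734 piRNA genes and 3 protein-coding genes, 1 of them hlh-32, which encodes a basic helix-loop-helix factor. Replicate 1 had 2 candidates there and replicate 2 had 6. Other gaps in cluster 2 spanned 139.4 kb with 573 piRNA genes and 132.8 kb with 570. The longest gap in cluster 1, 157.2 kb, was of another kind, with 200 piRNA genes and 40 protein-coding genes, among them msp-55 and msp-57, which encode major sperm proteins. Between the clusters the longest gap was 83.2 kb, and left of cluster 1 it was 44.9 kb.

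Summits mostly lay away from piRNA genes. Only 92 of the 927 cluster candidates, 9.92% (8.08% to 12%), had a summit within 250 bp of a piRNA gene, whereas 50.9% of all cluster positions are that close to one. The share was 8.85% in the replicate 1 list and 19% in the replicate 2 list. In cluster 1 it was 6.94%, against 34.5% of positions, and in cluster 2 it was 13.5%, against 62.0% of positions. Among optimal-list peaks 4 of 44 were that close, 9.09% (2.53% to 21.7%). The median distance from a candidate summit to the nearest piRNA gene was 4310 bp. Of the 92 close summits, 41 lay upstream of the nearest piRNA gene, 49 downstream and 2 inside it. piRNA genes lie densely on both strands, so a summit downstream of 1 gene can lie upstream of another. The split therefore cannot show whether summits lie at piRNA promoters.

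**Figure D2:**
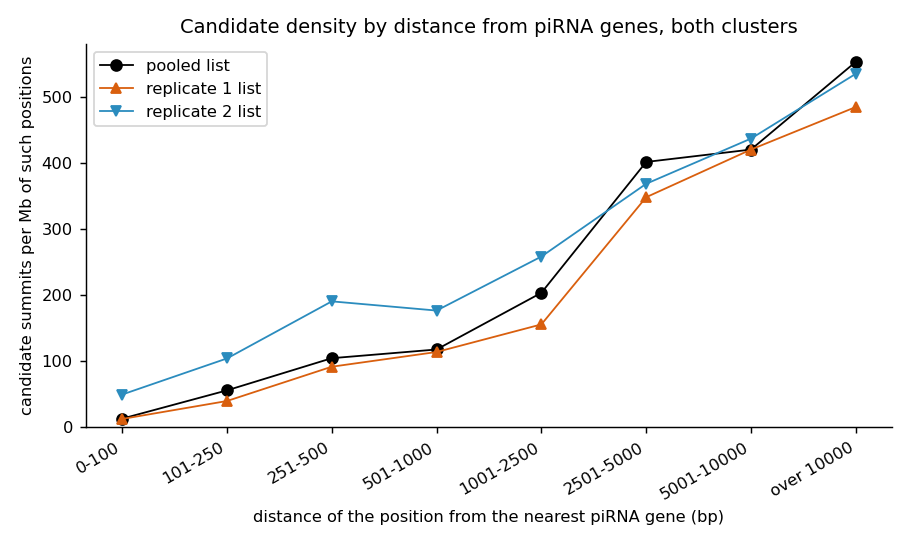
Candidate summits per Mb of cluster positions at each distance from the nearest piRNA gene, for the pooled list and each replicate list. The density climbs from 13.2 per Mb within 100 bp to 553 per Mb beyond 10000 bp in the pooled list, and both replicate lists are lowest within 100 bp and highest beyond 10000 bp.

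The density of pooled candidates increased at each step of distance. In replicate 2 it did not between the third and the fourth step, with 190.5 per Mb up to 500 bp and 177 up to 1000 bp. It was 13.2 per Mb within 100 bp of a piRNA gene, 55.9 beyond that up to 250 bp, 105 up to 500 bp and 118 up to 1000 bp. Farther out it was 203 up to 2500 bp, 401 up to 5000 bp, 420.0 up to 10000 bp and 553 beyond. In replicate 2 the closest positions had 49.6 per Mb, against 12.7 in replicate 1. In replicate 2, 25.8% (20.7% to 31.4%) of cluster candidates ranked beyond 22500 were within 250 bp of a piRNA gene, and 10.3% (2.87% to 24.2%) of the top-ranked ones, as many as the optimal list holds. In replicate 1 the same shares were 10.8% (6.83% to 16.1%) and 5.41% (0.661% to 18.2%).

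Base composition moved with distance. Positions within 100 bp of a piRNA gene averaged 28.9% GC over the 150 bp on each side, and those beyond 10000 bp averaged 36.5%, while cluster candidates averaged 42.5% GC and candidates in the rest of the chromosome 42.6%. When cluster positions were weighted to the GC content of the candidates in 5 bins, 22.5% of them were within 250 bp of a piRNA gene, so the difference between candidates and positions was -12.6 percentage points, against -41.0 without weighting. The weighted difference was -11.1 points in replicate 1, -9.84 points in replicate 2 and -12.2 points for optimal-list peaks. The weighting was added after the data were seen. Within each GC bin, candidates were sparser near piRNA genes than away from them, by a ratio of 0.160 below 30% GC, 0.209 from 30% to 35%, 0.310 from 35% to 40%, 0.366 from 40% to 45% and 0.734 above in the pooled list. Replicate 1 gave 0.115, 0.141, 0.328, 0.374 and 0.739 over the same bins, and replicate 2 gave 0.312, 0.375, 0.597, 0.768 and 0.747, so the contrast was weaker in replicate 2 below 45% GC. The ratios below 30% GC rest on few summits, 7 near and 15 away in the pooled list and 2 and 6 in replicate 1, against 39 and 43 in replicate 2. The lower density of the clusters against the rest of chromosome IV, a ratio of 0.480 without weighting, moved toward 1 as well. Weighted over the same 5 GC bins, its ratio was 0.645, with 0.599 in replicate 1 and 0.745 in replicate 2. GC content can still differ within a bin.

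Repeated sequence was counted too. In the clusters as a whole 9.14% of positions started a 50-base word that occurs again in the genome on either strand, against 7.47% in the rest of chromosome IV. Of positions within 250 bp of a piRNA gene, 2.25% did, against 16.3% of cluster positions farther away. The part of repeats in the candidate densities was not tested.

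Gene structure was compared next. In coding sequence of the clusters there were 113 candidates per Mb within 250 bp of a piRNA gene and 518 farther away, and 541 in coding sequence of the rest of chromosome IV away from piRNA genes. In introns the values were 29.9 near, 231 farther away and 243 in the rest. Outside protein-coding genes they were 12.4 near, 160.2 farther away and 218 in the rest. In untranslated exons they were 109 near, 290.3 farther away and 326 in the rest. In all 4 parts, and in both replicate lists, the density near piRNA genes was the lowest of the 3. Its size depended on the replicate, with 5.93 per Mb in replicate 1 and 47.4 in replicate 2 outside protein-coding genes, and 19.2 and 79.1 in introns. Over all positions farther than 250 bp from piRNA genes, the clusters had 274 candidates per Mb and the rest had 315, a ratio of 0.870. The densities were 244 against 305 in replicate 1, but 309 against 315 in replicate 2. At these positions replicate 2 had more in the clusters in coding sequence, 466 against 425, and in introns, 313 against 270. It had fewer there in untranslated exons and outside protein-coding genes, and replicate 1 had fewer in all 4 parts. For optimal-list peaks at such positions the clusters had more, as given above, and the replicate lists had 11.5 per Mb against 9.93 in replicate 1 and 11.5 against 11.3 in replicate 2.

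**Figure D3:**
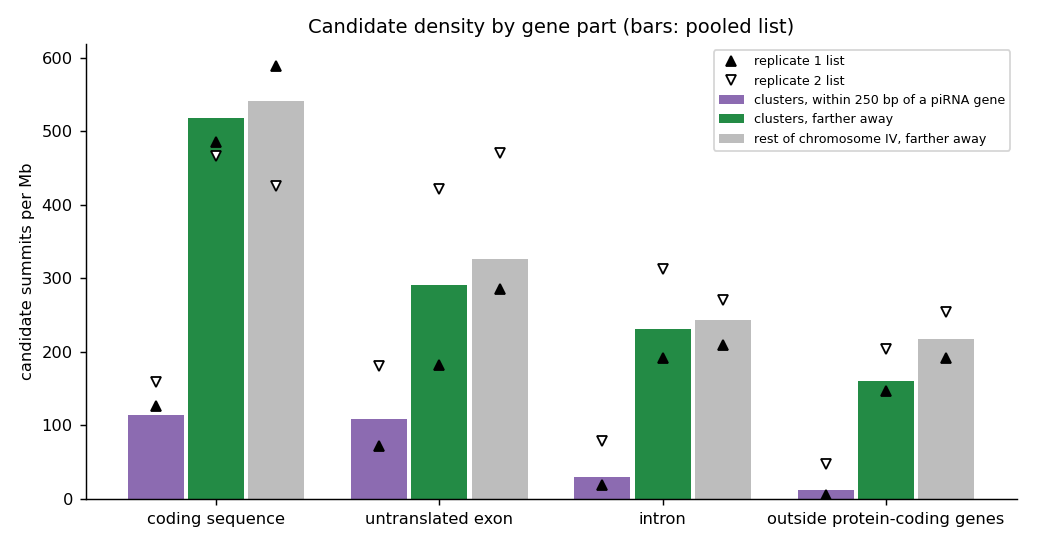
Candidate summits per Mb by gene part, for cluster positions near piRNA genes, cluster positions farther away, and positions of the rest of chromosome IV away from piRNA genes. Bars show the pooled list and triangles the replicate lists. Purple bars are lowest in each gene part, at 12.4 to 113 per Mb.

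The upstream element was likewise scarce at summits relative to where it occurs. The word CTGTTTCA stood on either strand within 150 bp of the summit in 30 of 927 cluster candidates, 3.24% (2.19% to 4.59%), and in 47 of 3515 candidates of the rest of the chromosome, 1.34% (0.984% to 1.77%). Of all windows of that width, 21% in the clusters and 2.31% in the rest hold the word. These shares were not weighted for GC content, which was lower close to piRNA genes than at candidates. Among optimal-list peaks 1 of 44 in the clusters and 1 of 125 in the rest held it. Replicate 2 had it at 6.97% of cluster summits and replicate 1 at 3.44%.

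Of the 10 strongest peaks of cluster 1, 9 lay in the promoter window of a protein-coding gene and 5 within 250 bp of a transcript start. Such a window held 42.6% of all cluster candidates. The highest, at chrIV:4750081, was at -159 bp relative to a transcript start of Y17G9B.5, with a pooled signal of 271, 126 in replicate 1 and 135 in replicate 2. The second, at chrIV:6323835, was at -339 bp from sqd-1, named for its likeness to the fly RNA-binding protein Squid, with 230.4 pooled, 111 in replicate 1 and 115.45 in replicate 2. Both ranked among the 200 strongest of each replicate list. Signals of the pooled list and of each replicate list are on separate scales, so ranks carry the comparison between replicates.

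The next members of cluster 1 were less evenly ranked. The summit by the tRNA gene C43G2.t1, at -354 bp from try-3, which encodes a trypsin-like protease, had 182 pooled, 103 in replicate 1 and 75 in replicate 2. In an untranslated exon of cif-1, which encodes a subunit shared by the COP9 signalosome and a translation initiation factor, the summit had 173 pooled, 100.6 in replicate 1 and 62.6 in replicate 2. At T22D1.17 the values were 158, 73.2 and 83.7, and at Y73B6BL.29 they were 157, 59.8 and 103, in the same order of lists. C43G2.t1 ranked 225 in replicate 1 and 602 in replicate 2, and cif-1 ranked 244 and 1101. The order was turned at T22D1.17, with ranks of 678 and 442, and at Y73B6BL.29, with 1437 and 215.

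The last of the 10 strongest in cluster 1 were at fkh-7, which encodes a forkhead transcription factor, with 156 pooled, 67.1 in replicate 1 and 92.2 in replicate 2, and at ipla-6, a phospholipase gene, with 154, 60.6 and 87.6. At tebp-2, which encodes a telomere-binding protein, they were 152 pooled, 70.5 in replicate 1 and 64.1 in replicate 2. In the coding sequence of ivd-1, which encodes isovaleryl-CoA dehydrogenase of leucine breakdown, the pooled signal was 152, with 114 in replicate 1, rank 161, and 42.5 in replicate 2, rank 3824. Of the 10, ivd-1 alone lay outside a promoter window, counted as up to 1000 bp before and up to 500 bp after an annotated transcript start.

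In cluster 2 the strongest peak, at chrIV:16503794, was in an intron of zip-7, which encodes a bZIP transcription factor, with 213 pooled, 109.9 in replicate 1 and 88.3 in replicate 2. The second, at chrIV:14033893, lay in a noncoding RNA gene near mir-52, a member of the miR-51 family of microRNAs, with 192 pooled, 122 in replicate 1 and 60.7 in replicate 2. The third, at chrIV:13887608, was at -471 bp from lin-66, a developmental timing gene, with 173 pooled, 83.1 in replicate 1 and 95.5 in replicate 2. The other 7 of the 10 strongest had pooled signals of 143 to 166. Of these, 5 lay within 250 bp of a tRNA gene, 1 at the snoRNA gene Y67A10A.14 (152 pooled, 95.1 and 58.1 in replicates 1 and 2), and 1 in an intron of Y65A5A.2 (158 pooled, 86.9 and 69.3). Of the 10, the peak near mir-52 and those at the tRNA genes Y7A9D.t2, Y105C5B.t1 and Y65A5A.t4 lay outside a promoter window.

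Just below the optimal list stood lag-1, the C. elegans CSL transcription factor of Notch signalling, with a summit in an intron and a pooled signal of 114, 81.0 in replicate 1 and 38.1 in replicate 2. Next were hrpu-1, an hnRNP U gene, with 114 pooled, and snx-13, a sorting nexin gene, with 113 pooled. The lowest signal in the optimal list was 114.579 and the highest outside it 114.575, so these members lie close to that limit.

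tRNA genes were the noncoding class most often at optimal-list peaks. In the clusters 10 of 41 tRNA genes, 24.4% (12.4% to 40.3%), had an optimal-list summit within 250 bp, and in the rest of chromosome IV 12 of 30 did, 40% (22.7% to 59.4%). For snoRNA genes it was 3 of 18 in the clusters and 11 of 41 in the rest, and for microRNA genes 1 of 19 and 1 of 31. For snRNA genes, which share a promoter-binding complex with piRNA genes in C. elegans, it was 0 of 16 in the clusters, with an upper limit of 20.6%, and 1 of 25 in the rest. For piRNA genes it was 5 of 14204 in the clusters, 0.0352% (0.0114% to 0.0821%), and 2 of 510 in the rest. Annotated starts of protein-coding genes stood at 7 of 941, 0.744%, and 31 of 2340, 1.32%. The clusters hold 44 optimal-list peaks and 14204 piRNA genes, so the share for piRNA genes was bound to be small. Its distance from the share for tRNA genes therefore shows no preference of peaks for either class. The intervals cover counting error only, and neighbouring genes share peaks.

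**Figure D4:**
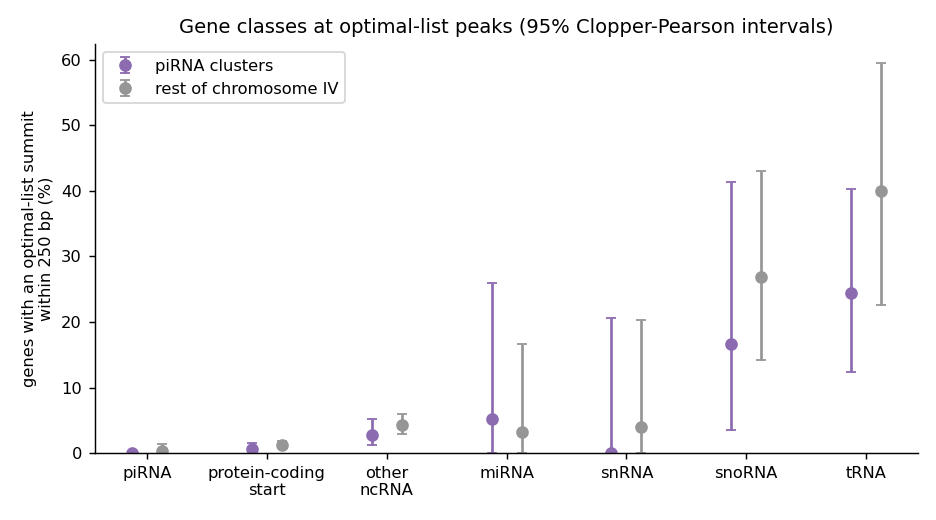
Share of genes of each class with an optimal-list summit within 250 bp, in the clusters (purple) and in the rest of chromosome IV (grey), with 95% Clopper-Pearson intervals. tRNA genes are highest in both, at 24.4% and 40%, and piRNA genes of the clusters lowest apart from snRNA genes, at 0.0352%. With far more piRNA genes than peaks in the clusters, their share was bound to be small.

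Seen from the peaks, 10 of the 44 optimal-list peaks of the clusters, 22.7% (11.5% to 37.8%), lay within 250 bp of a tRNA gene, against 12 of 125, 9.60% (5.06% to 16.2%), in the rest. The intervals overlap. Over all candidates it was 18 of 927, 1.94%, against 24 of 3515, 0.683%, and the clusters hold 41 tRNA genes and the rest 30. A promoter window of a protein-coding gene held 24 of the 44 optimal-list summits, 54.5%, against 70 of 125, 56.0%. Over all candidates it held 395 of 927, 42.6%, against 1324 of 3515, 37.7%.

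The 10 tRNA peaks had pooled signals of 128 to 182, with a median of 145. Of their summits, 8 lay inside the tRNA gene, as at Y105C5B.t1, a tRNA-Asp gene in an intron of the receptor gene srv-16, with 162 pooled, 92.7 in replicate 1 and 70.6 in replicate 2. The summit there was 42 bases from the first base of a gene of 72 bases. At Y43D4A.t2, tRNA-Gly, it was 148 pooled, 83.0 in replicate 1 and 61.8 in replicate 2, and at Y65A5A.t4, tRNA-His, 143, 78.9 and 58.6. B0350.t1, tRNA-Lys, had 135 pooled, 68.8 in replicate 1 and 67.5 in replicate 2. All 4 had a candidate in both replicates and ranked higher in replicate 1 than in replicate 2, with ranks of 299 and 738 at Y105C5B.t1 and 847 and 855 at B0350.t1.

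The tRNA-Ala genes Y7A9D.t2, Y65A5A.t2 and Y65A5A.t1 had 166, 162 and 128 pooled and 75, 80.4 and 66.3 in replicate 2, with no overlapping candidate in replicate 1. The same held for F02H6.t1, tRNA-Pro (139.8 pooled, 69.5 in replicate 2) and B0513.t1, tRNA-His (136 pooled, 61.0 in replicate 2). tRNA genes are present in near-identical copies, and how the authors placed reads that match several copies is not given in the sources used here. Each of the 3 tRNA-Ala sequences occurs 17 times in the genome, the gene itself included, that of F02H6.t1 24 times, and that of B0513.t1 once, at the gene itself. Over the 10 tRNA genes at peaks the count was 1 to 29 with a median of 17, and over the other 31 tRNA genes of the clusters 1 to 29 with a median of 10. Where the sequence occurs more than once, a peak may hold reads of other copies, and the part of this in the result was not tested.

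The share of peaks with a candidate in both replicate lists was smaller in the clusters, for the most part in cluster 2. Of the 44 optimal-list peaks of the clusters, 35 overlapped a candidate of both replicates, 79.5% (64.7% to 90.2%), and 9 overlapped a candidate of replicate 2 alone. In the rest of chromosome IV 124 of 125 overlapped both, 99.2% (95.6% to 99.98%), and 1 overlapped replicate 2 alone. The intervals do not overlap, but they cover counting error only. Neighbouring peaks are not independent, such as the tRNA-Ala peaks named above, which lie from chrIV:16389244 to chrIV:16399227. Of the 9 peaks with a candidate in replicate 2 alone, 5 lay at the tRNA genes named above and 4 elsewhere. Their ranks in replicate 2 ran from 332 to 3822. Only the peak at chrIV:6756651 lay in cluster 1, which holds 21 optimal-list peaks. The others lay in cluster 2, which holds 23. No replicate 1 signal is listed at these peaks, so a missing candidate does not show that replicate 1 had none. Away from tRNA genes 4 of 34 lacked a replicate 1 candidate in the clusters and 1 of 113 in the rest, and near tRNA genes 5 of 10 in the clusters and 0 of 12 in the rest.

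A place among the strongest regions of both replicates, as many in each as the optimal list holds, was reached by 12 of the 44, 27.3% (15% to 42.8%), against 53 of 125, 42.4% (33.6% to 51.6%), with overlapping intervals. Another 15 of the 44 were among the strongest of replicate 1 alone, 13 of replicate 2 alone and 4 of neither. The widest gap was at thoc-7, which encodes a THO complex subunit, with 121 pooled, 93.5 in replicate 1, rank 296, and 21 in replicate 2, rank 22722. It was picked out after its values were seen. Over all candidates the clusters were like the rest, with 511 of 927 in both replicate lists, 55.1%, against 1882 of 3515, 53.5%.

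**Figure D5:**
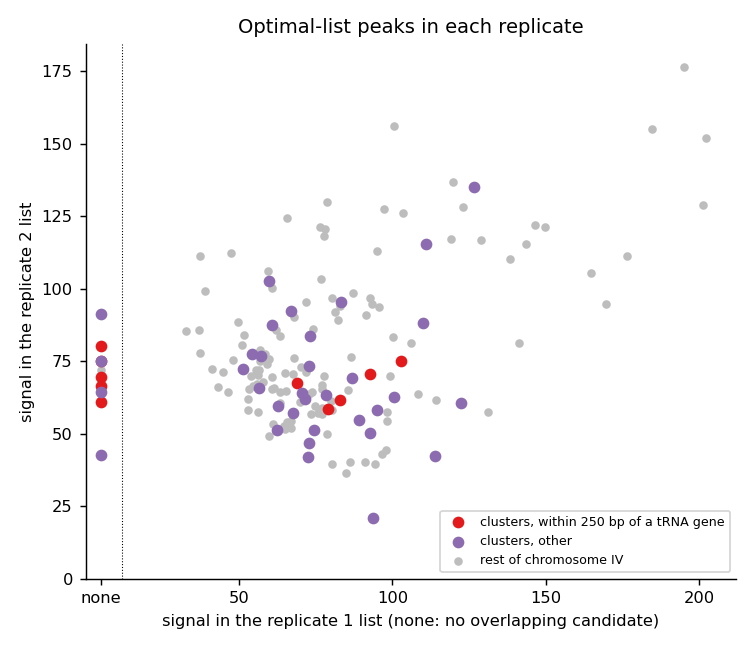
Signal of each optimal-list peak in the replicate 1 list and the replicate 2 list, for clusters near tRNA genes (red), other cluster peaks (purple) and the rest of chromosome IV (grey). Points left of the dotted line have no overlapping candidate in replicate 1, which applies to 9 of 44 cluster peaks and 1 of 125 others.

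The piRNA genes with an optimal-list summit within 250 bp were 5, at 4 peaks. The closest was 21ur-5229, 90 bp from the summit at chrIV:5967199, which lies in the tRNA gene B0350.t1. The genes 21ur-3160 and 21ur-5470 were 106 bp and 131 bp from the summit by F02H6.t1, and 21ur-11336 was 227 bp from the summit in B0513.t1. The remaining gene, 21ur-3187, was 214 bp from the summit in fkh-7, in the sequence set shown early with its word in capitals. So 3 of the 4 peaks near piRNA genes also lay at a tRNA gene.

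Candidates close to piRNA genes were of middling signal. The 92 had a median pooled signal of 46.1 and a highest of 156, against 49.1 and 271 for the other 835 cluster candidates. In replicate 1 the medians were 27 near and 29.6 away, and in replicate 2 they were 23.9 and 27.3. Of the 92, 35 lay in coding sequence, and 14 had the word CTGTTTCA within 150 bp of the summit.

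Genes that act in the piRNA pathway were looked up as well, from a list of 19. Ensembl matched 17 of them, and 1 had an optimal-list peak in the gene or its promoter window, 5.88%, against 881 of 19973 protein-coding genes, 4.41%. That gene was snpc-4, whose product sits at promoters of piRNA and snRNA genes, and its peak was the strongest of the pooled list, at 2954. The piRNA transcription gene prde-1 had 4 candidates, none in the optimal list, the strongest at 95.3. The strongest candidate was 89.3 at henn-1, which encodes the methyltransferase of piRNA 3' ends, 77.7 at tofu-2 and 64.1 at prg-1. With 1 of 17 the list stood near the background share.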

How the data were processed

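The analysis used 2 biological replicates of 1 group. The signal value of each region was deposited by the authors in candidate lists of 30000 regions, 1 per replicate and 1 from both pooled, per the file manifests in the labels. The summit of a region is the offset the authors deposited, added to its start. The peak caller, its version and the IDR threshold were not given in the sources used here, and read depth is unknown, as is the scale of the signal. Summits on the ce11 build were set against the genes of Ensembl release 115. Sequences came from RefSeq (assembly WBcel235, the same as ce11). Lists on the ce10 build were not used here, since no coordinates were converted.

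A pooled candidate counted as an optimal-list peak when it was the same region, and as found in a replicate when it overlapped a candidate of it by 1 bp or more. Where a replicate list was used alone, as many of its strongest regions as the optimal list holds stood in for the optimal list. Densities are summits per Mb, shares carry 95% exact Clopper-Pearson intervals (counting error only), and the values of each replicate list show the spread between replicates. Regions are not replicates, and with 1 group no test between conditions was possible, so no p-value is given. Members named are the 10 strongest optimal-list peaks of each cluster and the 3 strongest candidates outside that list. The members, gene lists and comparisons were chosen with earlier results of these data known. Scripts (Python 3.11.15, numpy 2.4.6, pandas 2.3.3, scipy 1.17.1) were tested on simulated data.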

Additional observations from a re-analysis of the deposited data

How the results depend on the processing

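No paired analysis was possible because there was only 1 group to compare. In the values that follow, the first of each pair of groups is the piRNA clusters. The ratio of candidate density to that of the rest of chromosome IV stayed below 1 under all alternatives run. It ranged from 0.436 to 0.601 with 1 replicate left out, and was 0.418 with clusters narrowed by 250 kb at both ends. It was 0.645 at equal GC content and 0.870 over positions farther than 250 bp from piRNA genes, both added after the data were seen. At such distances from piRNA genes, replicate 2 had 309 candidates per Mb in the clusters and 315 in the rest. The ratio of optimal-list peak density, 0.641, was above 1 under 1 alternative, at 1.18 over positions farther than 250 bp from piRNA genes, and the cause was not tested. It was 0.559 to 0.607 with 1 replicate left out, 0.856 at equal GC content (this and the 1.18 also added after the data were seen), 0.595 with clusters narrowed by 250 kb at both ends, 0.559 without regions near tRNA, snoRNA and snRNA genes, and 0.561 with a list of 2 times as many peaks. The share of candidates in the optimal list also changed sign. It was 1.19 percentage points higher in the clusters, 1.28 points higher without replicate 2 and -0.249 points without replicate 1, and the cause was not tested. The difference in median signal was 2.54 in the pooled list, 2.02 with narrowed clusters, 0.823 over the 15000 strongest candidates and 0.363 to 0.774 with 1 replicate left out.

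The share of cluster candidates within 250 bp of a piRNA gene stayed below that of positions under all alternatives run. The difference was -42.1 to -31.9 points with 1 replicate left out, -29.1 points at 100 bp and -12.6 points with weighted GC content. For optimal-list peaks the difference was -45.5 to -40.7 points with 1 replicate left out and -47.7 without regions near tRNA, snoRNA and snRNA genes. It was -45.9 for the stronger 50% of the list, -29.6 at 100 bp and -45.7 outside protein-coding exons. With weighted GC content it was -12.2 points, and there the interval of the share of peaks covers the weighted share of positions. The share of cluster piRNA genes with such a peak was 0.0282% to 0.0352% with 1 replicate left out, 0.00704% both for the stronger 50% of the list and at 100 bp, 0.0493% with a list of 2 times as many peaks, and 0.422% at 1000 bp. The excess of the upstream word at cluster summits over the rest was 1.90 points, and 2.09 to 5.47 with 1 replicate left out. The difference in peaks strong in both replicates was -15.1 points, and -29.6 for the stronger 50% of the list. Read depth is unknown, so what it limits cannot be stated.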
